A study of Drosophila melanogaster with 3 samples.

Results

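The regions described here are low-scoring entries of a pooled list for tagged Chiffon that holds background as well as peaks. Each has its highest point in the 3' untranslated region (3' UTR) of a protein-coding gene. They are the regions of the pooled list that overlapped no reproducible peak, had their summit in a 3' UTR and in no 5' UTR, and lay more than 500 bp from every annotated start of a protein-coding transcript. There were 610 such regions, called members below, among 20865 weak regions (2.92%) and among 25066 regions of the pooled list in all (2.43%).

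The data come from chromatin immunoprecipitation with sequencing (ChIP-seq) on whole Drosophila melanogaster embryos of both sexes, collected over 0 to 24 h of development. All 3 biological replicates belong to 1 group, a transgenic line with a C-terminal GFP on the RA isoform of chif (chif-RA-GFP), and the precipitation used an antibody to GFP. The line stably expresses the fusion, and the labels name no untagged or otherwise treated group, so every comparison is between classes of regions within these embryos. In whole embryos of mixed age, background, occupancy in fewer cells and weaker occupancy in each cell cannot be told apart.

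Chiffon is related to Dbf4, which activates the replication kinase Cdc7, and another product of the gene works with the histone acetyltransferase Gcn5. A 3' UTR is the part of a messenger RNA between the stop codon and the site of cleavage and polyadenylation, which lies just downstream of the hexamer AATAAA. In flies these segments are rich in A and T, they are longest in genes of the nervous system, and they carry sites for RNA-binding proteins such as Pumilio. In chromatin, the same stretch of DNA is transcribed by polymerase that is about to terminate.

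Short sequences at the summits show the DNA under 5 strong recurrent members, those that follow Ppa, MESK2 and GalT1 in signal value. No sequence of these 3 is shown. The runs go 5' to 3' on the strand of the host gene, were read from the RefSeq sequence of genome release 6 (dm6), and hold 30 bases with the summit base in capitals.
CG10222 (chr3L:13411200-13411229, minus strand): aaatccagaccaccaCtagatgtcgctgca
CG8206 (chrX:15740368-15740397, plus strand): atcaagttttggctAcaagccatcaatttt
Ssu72 (chrX:19666009-19666038, plus strand): gggccctcgcgggcAggggccgcgtttttt
CG32266 (chr3L:3791298-3791327, plus strand): tgagacgctgaagtTcccacaccatcgaat
beat-Ic (chr2L:16040396-16040425, plus strand): ttaaatatattcaaAtaaaaaatcaaaaag
The 5 runs differ widely in base composition. In the 201 bp window centred on the summit, GC content was 32.3% at CG10222, 35.3% at CG8206, 51.2% at Ssu72, 50.2% at CG32266 and 31.8% at beat-Ic.

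A further set holds members with a match to a known motif, in capitals. AATAAA, the polyadenylation signal, is shown at corto and Bre1, TGTANATA, the site of Pumilio, at CG3308 and CG14013, and CAGGTAG, the site of the early embryonic activator Zelda, in its reverse complement at CG4998 and Rack1.
corto (chr3R:5077806-5077835, minus strand): tgaaccgaacacAATAAAtatgcaaattaa
Bre1 (chr3L:5789834-5789863, minus strand): tactgtttaacgAATAAAgaaactaatgat
CG3308 (chr3R:21271385-21271414, minus strand): agtcgtactttTGTACATAtttattcttgt
CG14013 (chr2L:5552886-5552915, minus strand): ggtatcaaaatTGTAAATAtagaaagtgta
CG4998 (chr3L:16344708-16344736, plus strand): aaggtctccgcCTACCTGccctggatcca
Rack1 (chr2L:7826059-7826087, minus strand): ggccacaacggCTACCTGaacacggtgac
The corto match lay 6 bp from the summit and the Rack1 match 5 bp from it. The windows with the Pumilio and polyadenylation matches had GC contents between 31.8% and 36.8%, and those with the Zelda match 52.7% at CG4998 and 59.7% at Rack1. Both runs with the Zelda match are also coding sequence. The whole Rack1 region is annotated as coding exon. At CG4998 the match lay 69 bp upstream of the summit, and the coding part ended 33 bp upstream of the summit.

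Each replicate list held 30000 regions, the pooled list 25066 and the list that passed the irreproducible discovery rate (IDR) procedure 3684 peaks. Replicate 1 stood apart from the other replicates in base composition, so values are given per replicate and, where they turn on it, without it. Among each replicate's own regions that overlapped no IDR peak and met the position rule, mean GC was 50% for replicate 1, 42.2% for replicate 2 and 41.8% for replicate 3. Of these regions 43.0% were also annotated as coding exon in replicate 1, 17.9% in replicate 2 and 19.0% in replicate 3. The part of base composition in the results below was not tested.

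The signal value, the authors' own score in each list, chose the members together with the IDR list, and it is given as a description. The members had signal values between 34.2 and 87.4 with a median of 41.9 and quartiles of 36.9 and 48.4, and the lowest IDR peak had 92.4. Their ranks in the pooled list ran from 4015 to 25050. The deposited −log10 q had a median of 0.128 and a highest value of 2.07, and 13 of the 610 members exceeded 1.3. Just inside the limit lay members in Ppa (87.4), MESK2 (84.6), GalT1 (83.4), CG10222 (82.6) and CG12831 (81.7). Just outside it lay IDR peaks that met the same position rule in CG1888 (93.4), CG9166 (94.3), CG4822 (94.6), CG7778 (99.3) and Inx2 (101). At the lower end, the members in ect, CG10479, CG15706, CG44434 and S all had 34.2.

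Weak regions were sparser on 3' UTRs than on coding exons, except where the 3' UTR was also annotated as coding exon. The bases that met the position rule, called eligible 3' UTR below, came to 6.91 Mb or 5.16% of the 6 chromosome arms. They carried 88.2 members per Mb, against 213 weak regions per Mb on eligible coding exons and 156 per Mb over all 6 arms. Members came to 68.5 per Mb on 3' UTR alone and to 227 per Mb on bases that were also coding exon. The IDR peaks were sparser still on eligible 3' UTR, with 27 peaks (0.733% of 3684) and 3.91 per Mb, against 27.5 per Mb over all 6 arms. The densities over all 6 arms include promoters, which held 4687 weak regions and which the eligible sequence leaves out by rule. The 2 kinds of density are therefore not like for like. In the pooled list, 3' UTR summits made up 0.720% of the 5000 highest regions, 2.10% of the next 5000 and 3.70% of ranks 20001 to 25000.

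In each replicate's own list the shares can be given the same way, as a description, since IDR overlap was part of the rule and the IDR peaks are the same in every list. In replicate 1, 2.70% of regions that overlapped no IDR peak met the position rule, against 0.754% of regions that overlapped one. Replicate 2 gave 3.77% against 0.805%, and replicate 3 gave 4.14% against 0.748%. The mean difference was 2.77 ± 0.744 percentage points (SD, n = 3).

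How far the members recurred in the single replicates is given next. The pooled list was made from the same 3 libraries, so an overlap with a replicate list describes how the signal was spread over libraries and gives no independent support for a region. Of the 610 members, 101 (16.6%) overlapped a region of all 3 replicate lists, 276 of 2, 213 of 1 and 20 of none. Over all 20865 weak regions 23.7% were overlapped in all 3 lists and 2.42% in none. At promoters 29.2% of 4687 weak regions recurred in all 3, and in coding exons 18.2% of 3778. Of the upper 305 members by signal value 26.9% recurred in all 3 lists, and of the lower 305 6.23%. Without replicate 1, 38.2% of the members were overlapped in both remaining lists, against 48.8% of the other weak regions.

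By replicate, 52.5% of members were overlapped in replicate 1, 60.5% in replicate 2 and 62.1% in replicate 3, where all weak regions gave 57.0%, 68.5% and 65.9%. The mean was 58.4 ± 5.18% for members and 63.9 ± 6.09% for the other weak regions (SD, n = 3). The difference of -5.58 percentage points had the same sign in 3 of 3 replicates (exact two-sided sign-flip permutation p = 0.25, Benjamini-Hochberg adjusted 0.417 over 5 tests). With 3 pairs, 0.25 is the smallest p this test can give, so no comparison here could pass 0.05. Members also had lower pooled signal values than the other weak regions, with medians of 41.9 and 43.9 and upper quartiles of 48.4 and 54.1. Since recurrence rose with signal value among members, the classes were not matched for it. The part of signal value in the difference was not tested, and recurrence by GC of the window is given further below. Weak regions in coding exons ran the other way between libraries, with 67.6% in replicate 1, 56.7% in replicate 2 and 53.3% in replicate 3. The members were below them in replicate 1 and above them in replicates 2 and 3 (mean difference -0.842 percentage points, exact permutation p = 1), and without replicate 1 the difference was 6.32 percentage points.

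**Figure D1:**
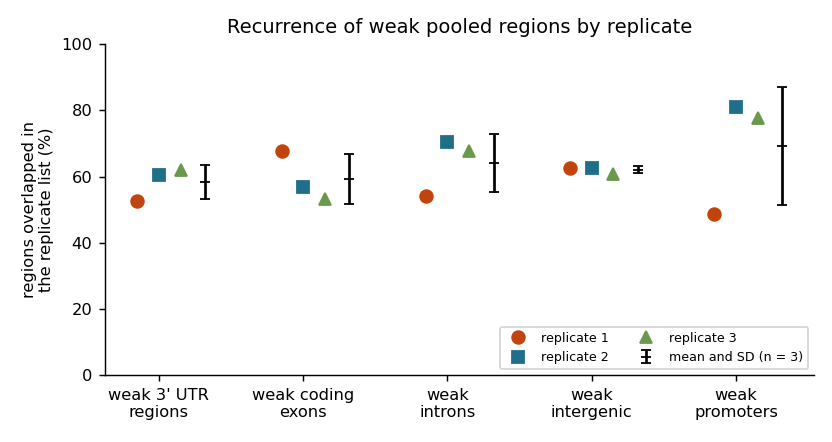
Share of weak pooled regions (percent, y axis) overlapped by at least 1 bp in each replicate list, for the 610 members and the 4 largest other position classes of weak regions; points are replicates and the bars give the mean and SD of 3. Members sit between 52.5% and 62.1%, and replicate 1 is the lowest point for members, introns and promoters and the highest for coding exons.

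Where members were found in a replicate, they ranked in the middle of its list. Among 30000 regions, members had a median rank of 13529, 14245 and 14000 in replicates 1, 2 and 3, against 12037, 11960 and 11829.5 for the other weak regions. Among the 3684 highest regions of a replicate were 20 members in replicate 1, 4 in replicate 2 and 8 in replicate 3. No member was that high in all 3, and 6 members ranked at or above 10000 in every list. The rule left out pooled regions that overlap an IDR peak, so low counts among the highest ranks follow in part from the rule. The same counts were not made for the other weak regions.

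Among the 12 strongest members overlapped in all 3 lists, ranks differed widely between libraries. The strongest lay in Ppa, which encodes an F-box protein that marks other proteins for degradation, with ranks of 8728, 4619 and 3147 in replicates 1 to 3. MESK2 followed with 2317, 4777 and 8328, and GalT1 with 3823, 8437 and 6779. Egfr, the receptor of the epidermal growth factor pathway, held a member of signal value 71.0, 779 bp from the transcript end, at ranks 4236, 8613 and 10446. The member in Ssu72, a phosphatase of the polymerase II tail that acts in RNA 3' end formation, ranked 3988, 4254 and 13283. The member in tio, a zinc finger gene, ranked 29764 in replicate 1 but 7015 and 3198 in replicates 2 and 3. CG8206 had the best worst rank of all members, with 4135, 7160 and 5580, and its summit lay 35 bp from the transcript end. CG10222, beat-Ic, CG32266, Ama and CG4452 completed the 12, and each had at least 1 rank beyond 10000. Only in Ppa, MESK2, GalT1 and CG8206 were all 3 ranks within 10000 among these 12.

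**Figure D2:**
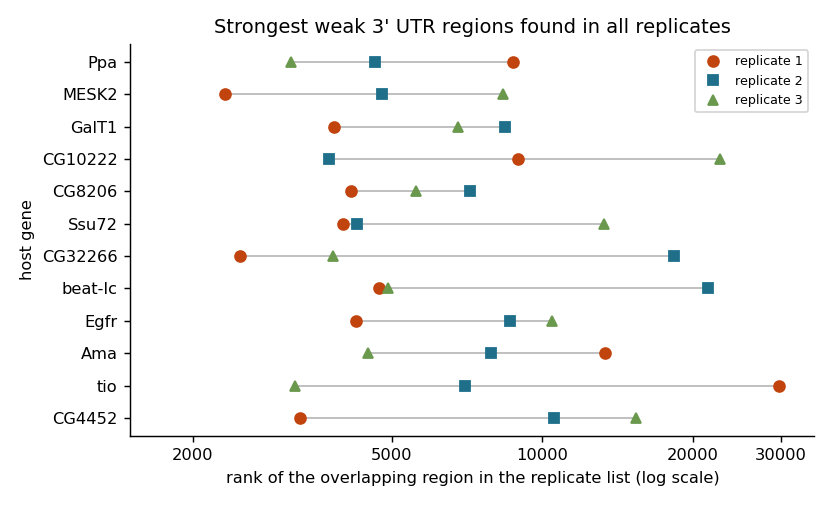
Rank of the overlapping region in each replicate list (x axis, log scale, 1 is the strongest of 30000) for the 12 members of highest pooled signal value that recurred in all 3 replicates, by host gene. The narrowest spread is at CG8206, from 4135 to 7160, and the widest at tio, from 3198 to 29764.

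Summit windows of members held more G and C than 3' UTR sequence in general. The comparison used every 50th base of the eligible 3' UTR, 138264 positions in all. The median GC of the 201 bp summit windows was 46.8% for members (quartiles 38.8% and 55.2%), against 36.3% for the positions (30.8% and 43.8%). Members were also more often coding sequence, since 195 of them (32%) had a summit in a coding exon of another transcript or gene, against 12.4% of the positions. The coding exon belonged to another transcript of the host gene for 142 of them, to another gene on the same strand for 38 and to a gene on the opposite strand for 15. The 415 members in 3' UTR alone had a median of 41.8%, against 34.8% for the positions in 3' UTR alone. Members that were also coding had 57.7%, against 52.7%.

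Density climbed with GC in the pooled list and in every replicate. Members numbered 13.3 per Mb of eligible sequence with GC under 30%, 52.3 from 30 to 40%, 118 from 40 to 50%, 240.4 from 50 to 60% and 544 at 60% or more. From the lowest to the highest bin, density ran between 4.90 and 906 regions per Mb in replicate 1, between 56.1 and 406 in replicate 2 and between 66.6 and 355 in replicate 3. The replicates thus differed in the slope of the climb and not in its direction.

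**Figure D3:**
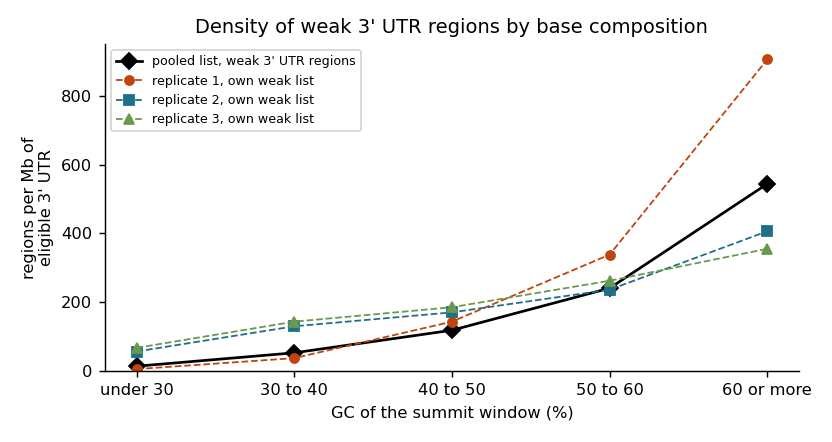
Weak 3' UTR regions per Mb of eligible 3' UTR (y axis) by GC of the 201 bp summit window (x axis, percent), for the members of the pooled list and for each replicate's own regions that overlap no IDR peak. Every line climbs from left to right, replicate 1 most steeply, from 4.90 to 906.

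Within each replicate, mean GC of its own weak 3' UTR regions was close to that of its other weak regions and far below that of its weak coding-exon regions. Against the other weak regions it was 50% and 48.5% in replicate 1, 42.2% and 43.8% in replicate 2, and 41.8% and 43.8% in replicate 3. The mean difference was -0.658 ± 1.91 percentage points (SD, n = 3, lower in 2 of 3, exact two-sided sign-flip permutation p = 0.750, adjusted 0.938). Against weak coding-exon regions, which had 56.0%, 54.9% and 55.0%, the difference was -10.6 ± 4.03 percentage points (lower in 3 of 3, exact permutation p = 0.25, adjusted 0.417).

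The members held by different libraries differed in base composition. The 320 members overlapped in replicate 1 had a median GC of 51.2%, and the 290 not overlapped there 42.8%. The 75 members found in replicate 1 alone had 53.2%, and 52% of them were also coding, while the 132 found in replicates 2 and 3 but not 1 had 41.3%, and 15.9% were also coding. For windows under 40% GC, 32.6% of 178 members were overlapped in replicate 1, 69.7% in replicate 2 and 67.4% in replicate 3. For windows of 50% or more, the shares of 242 members were 69.8%, 52.9% and 57.0%. The other weak regions had the same direction between libraries, with 47.5%, 81.0% and 78.1% under 40% GC and 68.0%, 58.5% and 55.7% at 50% or more. Their median GC was 50.2% in replicate 1 alone and 41.3% in replicates 2 and 3. Members were thus lower in each replicate under 40% GC, and at 50% or more in replicate 2 alone. Under 40% GC, 12.9% of members and 30.1% of the other weak regions were overlapped in all 3 lists. From 40 to 50% these shares were 16.3% and 22.0%, and at 50% or more 19.4% and 20.0%.

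**Figure D4:**
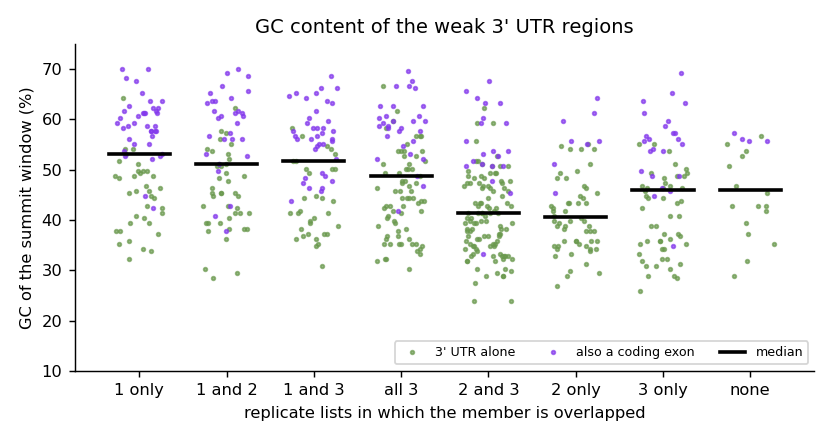
GC of the summit window (y axis, percent) for each of the 610 members, grouped by the replicate lists that overlap it (x axis); green points lie in 3' UTR alone, purple points also in a coding exon, and black lines are medians. Medians are 53.2% for members in replicate 1 only and 41.3% for members in replicates 2 and 3.

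Along the 3' UTR, members were thinnest near the transcript end. Distances are genomic, introns included, to the end of the host transcript with the longest 3' UTR. The median distance to the end was 774 bp for members (quartiles 393 and 1559), against 605 bp for the positions of the eligible 3' UTR, and 74 members (12.1%) lay within 200 bp of the end, against 23.4% of the positions. Density was 54.9 members per Mb under 100 bp from the end, 34.3 from 100 to 200 bp, 91.3 from 200 to 500 bp, 104 from 500 to 1000 bp, 118 in the next 1000 bp and 91.7 beyond. Within 200 bp of the stop codon lay 23.1% of members and 24.5% of positions. When the distance from stop codon to end was cut into 3 equal parts, they held 35.7%, 35.4% and 28.9% of members, and 32.7%, 33.2% and 34.1% of positions.

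The shortage near the end was largest in replicate 1. In the replicates' own sets, 8.74% of 709 regions lay within 200 bp of the end in replicate 1, 18.9% of 968 in replicate 2 and 19.5% of 1059 in replicate 3, and the mean was 15.7 ± 6.03% (SD, n = 3) or 19.2% without replicate 1. The same shares are given for 3' UTR alone within ranges of GC. Under 40% GC, 26.3% of 175 members lay within 200 bp of the end, against 29.0% of such positions, and the replicates gave 24.8%, 27.4% and 29.2%. From 40 to 50% GC, the values were 14.6% of 164 members and 19.4% of positions, and at 50% or more 5.26% of 76 members (4 members) and 10.6% of positions. Near the stop codon members were also below positions in each range, with 16% and 20.4%, 30.5% and 39.2%, and 40.8% and 48.9%.

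**Figure D5:**
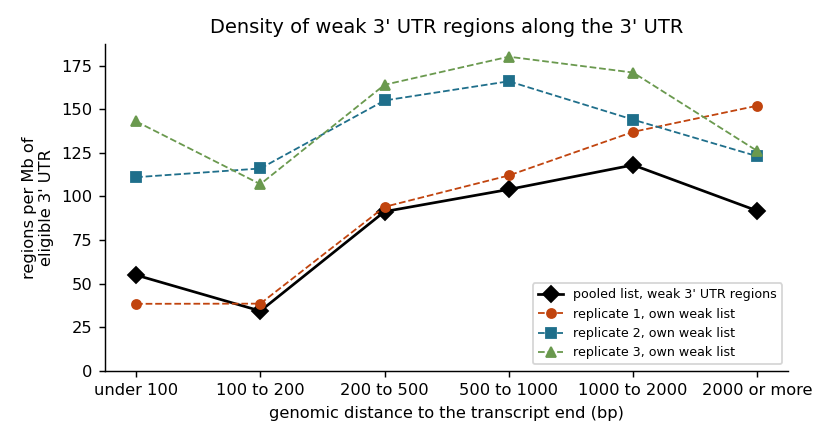
Weak 3' UTR regions per Mb of eligible 3' UTR (y axis) by genomic distance of the summit to the transcript end (x axis, bp), for members of the pooled list and each replicate's own regions that overlap no IDR peak. The pooled line and replicate 1 are lowest within 200 bp of the end, at 34.3 to 54.9 and 38.4 to 38.5, and replicates 2 and 3 vary less, between 107 and 180.1.

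The members closest to an end lay in kkv, which encodes a chitin synthase, 3 bp from it, in CG34460, 5 bp, and in Octbeta1R, an octopamine receptor, 8 bp. The members in kkv and Octbeta1R recurred in all 3 replicates. The farthest lay in CG46467, 45172 bp away across introns, and in CG12912 and CG15465, 27311 and 19703 bp away. All 3 of these summits were also coding exon of another transcript or gene, with GC between 56.2% and 61.2%.

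The next gene downstream lay at distances much like those of any 3' UTR position. Its median distance was 1594 bp for members and 1508 bp for positions, and it was within 500 bp for 21.6% of members and 25% of positions. It lay on the same strand for 38.7% of members and on the opposite strand, end to end with the host, for 45.6%, against 37.8% and 49.4% of positions. A further 14.3% of members lay inside another gene, against 10.3% of positions. Strand here is that of the annotated host gene and not of the signal. Only 8 members (1.31%) lay in 3' UTRs of genes on both strands, against 2.52% of positions. The strongest of them was in CG3308, with 76.7, absent from replicate 1 and at ranks 3221 and 4205 in replicates 2 and 3. The others named by the same rule lay in Myc (59.5), a growth-promoting transcription factor, RpL30 (50.6), Dgk (44.5) and 140up (39.2), and none of these 5 was overlapped in replicate 1. The nearest IDR peak lay a median of 9082 bp away, and for 24 members (3.93%) within 1000 bp.

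On the chromosome arms, members were spread at 98.6 per Mb of eligible 3' UTR on 2L, 101 on 2R, 88.2 on 3L, 91.1 on 3R and 70.8 on X. Chromosome 4 had 6 members and 55.2 per Mb. All weak regions per Mb of arm came to 169 on 2L, 151 on 2R, 172 on 3L, 158 on 3R, 130.4 on X and 74.9 on chromosome 4, so X and chromosome 4 were lowest in both. On chromosome 4 replicate 1 had 1 region of its own, against 17 in replicate 2 and 15 in replicate 3. On X the counts were 97, 191 and 178.

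The members lay in 565 of 11490 protein-coding genes with eligible 3' UTR (4.92%), and these were genes with long 3' UTRs. Eligible length had a median of 1570 bp in host genes, against 254 bp in all genes. When the genes were cut into 4 groups of near equal number by eligible length, 0.348% of the group with the shortest were hosts, 0.974% and 3.21% of the next groups, and 15.2% of the group with the longest. Members per Mb came to 54.8, 58.2, 75.3 and 95.4 in the same order. In that longest group, 23.2% of hosts and 21.8% of all genes had an IDR summit by a start site, at 500 bp or less. From the shortest, the other groups gave 10% and 10.9%, 10.7% and 13.1%, and 25% and 19.0%, with 10, 28 and 92 hosts. Without regard to length the shares were 22.7% (128 hosts) and 16.2%. Also without regard to length, 42.7% of hosts and 34.6% of all genes had a weak region at a start site. For a weak region in a coding exon the shares were 30.4% and 23.5%. Within each of the 4 length groups, however, the coding-exon share was lower in hosts than in all genes. From shortest to longest it was 0% (of 10 hosts) and 13.3%, 14.3% and 18.6%, 20.7% and 26.6%, and 34.3% and 35.7%. Weak regions at start sites were not split by length. Most hosts, 508, held a single member, 47 held 2, 7 held 3, 2 held 4 and 1 held 6. Members were not all separate sites, since 36 of them overlapped another member and the 610 formed 592 loci.

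The gene with the most members was corto, which encodes a chromatin protein that works with Polycomb and trithorax group factors. Its 6594 bp 3' UTR on 3R held 6 members, with signal values of 66.5, 65.9, 65.8, 48.8, 37.8 and 36.0 in falling order. They lay 35, 878, 3888, 1150, 4836 and 3023 bp from the end, in that order. The member at 35 bp is the one with AATAAA printed above, and it ranked 9531 in replicate 2 and 10839 in replicate 3. The members at 878 and 1150 bp overlap each other and share 1 region in each of these lists, at ranks 4745 and 5366. Only the member at 3888 bp was overlapped in replicate 1, at rank 10954, and the weaker one at 4836 bp was overlapped in no list.

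In elav, which encodes a neuronal RNA-binding protein whose targets gain extended 3' UTRs, 4 members with signal values of 80.7, 47.7, 41.2 and 34.5 lay in the 8557 bp 3' UTR. The strongest lay 3510 bp from the end and ranked 5037 in replicate 2 and 4284 in replicate 3. None of the 4 was overlapped in replicate 1, and 3 of them had GC contents between 30.3% and 39.8%. Glut4EF also held 4 members, and 2 of them lay in the 3' UTR of CG46467 as well. At the stronger of these, with signal value 50.4 and GC 64.7%, replicate 1 had a region at rank 2694, replicate 3 at rank 25908 and replicate 2 had none.

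Among genes with 3 members, pros encodes a homeodomain protein of neural differentiation. Of its members, the pair with signal values 58.2 and 35.1 overlap each other and share the same replicate regions, at ranks 3966, 18727 and 26258. The 3 members of Kdm4B, a histone demethylase gene, all lie in coding exon as well and are shared with the neighbouring annotation of seq, a zinc finger gene. Vha16-1, a proton channel subunit of the vacuolar ATPase, held members with 41.9, 38.5 and 37.4, of which none was overlapped in replicate 1.

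The gene lists were read by their share of hosts and by members per Mb. Over all genes with eligible 3' UTR 4.92% were hosts, and 15.2% in the group with the longest. Of 11 genes known for extended 3' UTRs in neurons, 5 (45.5%) were hosts, namely elav, mei-P26, shep, Hrb27C and Adar, with 111 members per Mb, against 88.2 over all eligible 3' UTR. The median eligible length of the 11 genes was 6165 bp, against 254 bp in all genes. The replicates' own sets gave 24.8, 173 and 285 regions per Mb on this list, against 103, 140 and 153 over all eligible 3' UTR, so replicate 1 was below the overall density and replicates 2 and 3 above it. Neuronal genes gave 9 hosts of 35 (25.7%) and 95.2 per Mb, with members in para, a sodium channel gene (63.1), sli, a midline guidance cue (53.7), and the cell adhesion gene Nrg (43.4). On neuronal genes the replicates' own sets gave 88.4, 109 and 149.6 per Mb, below the overall density in every replicate. Developmental transcription factors gave 14 of 84 (16.7%) and 113 per Mb, led by zfh1 (59.4), hth (59.3) and pros (58.2), and the replicates' own sets gave 101, 107 and 184 per Mb, above the overall density in replicate 3 alone. RNA-binding proteins, with 9 of 51 (17.6%) and 76.6 per Mb, included mbl (53.9), a splicing regulator, and 6 of the 14 members on this list are also on the list of extended 3' UTRs. On RNA-binding genes the replicates' own sets gave 87.6, 175 and 203 per Mb, below the overall density in replicate 1 alone. Signalling genes gave 4 of 48 (8.33%) and 71.1 per Mb, and chromatin regulators 2 of 47 (4.26%) and 51.5 per Mb. By replicate, these 2 lists gave 88.8, 195 and 107 per Mb, and 77.3, 180.4 and 77.3, above the overall density in replicate 2 alone. Of 23 cell cycle regulators none was a host. These counts are descriptions, and no list is called particular from them.

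Cytosolic ribosomal protein genes had 8 hosts of 77 (10.4%, against 4.92% of all genes) and 9 members on 23.9 kb of eligible 3' UTR, or 377 per Mb. The replicates' own sets held 3, 13 and 15 regions on these genes, which is 433 ± 269 per Mb (SD, n = 3) with the lowest value in replicate 1. The hosts and their signal values were RpS26 (61.3 and 36.5), RpL30 (50.6), RpL7 (45.8), RpL13A (45.5), RpL23A (36.3), RpL15 (35.9), RpL3 (35.9) and RpS7 (34.4), and 6 of the 8 hosts had an IDR summit by a start site, as did 56 of all 77 listed genes (72.7%). RpS26 at 61.3, RpL13A, RpL15 and RpS7 recurred in all 3 replicates. Actin and tubulin cytoskeleton genes gave 5 members in 3 hosts and 247 per Mb, with Act5C, a cytoplasmic actin (59.6, ranks 13122, 8288 and 23526), chic, profilin (55.1), and Tm1, tropomyosin (40, 39.4 and 38.4). The 3 members of Tm1 are also the 3 of the muscle list, which came to 136 per Mb. Translation factors gave 4 members and 173 per Mb, the histone variants His3.3A and His3.3B 1 member each, the glycolytic list 1 member in Hex-A, hexokinase (54.4), the heat shock list 1 in Hsp26 (38.6), and the adhesion list 4 in l(2)gl, Col4a1, dlg1 and ed.

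Motif matches were counted in the 201 bp windows, on either strand. AATAAA was found in 23.1% of members, against 41.1% of 3' UTR positions, and in 28.2% of all weak regions. Among windows under 40% GC the shares were 43.8% of 178 members and 53.1% of positions, and at 40% or more 14.6% and 19.2%. The Pumilio site TGTANATA was found in 9.18% of members, 14.7% of positions and 6.11% of weak regions. In the replicates' own sets it was in 4.65%, 13.2% and 14.6%, lowest in replicate 1, and AATAAA in 17.2%, 33.6% and 36.2%. At GC of 40% or more the Pumilio site was in 6.94% of 432 members and 6.75% of positions, and below that in 14.6% and 19.1%. The AU-rich element TATTTAA was found in 6.89% of members, 14.5% of positions and 8.31% of weak regions, and in 4.09%, 11.1% and 11.0% of the replicates' own sets. Under 40% GC it was in 16.3% of members and 20.0% of positions, and at 40% or more in 3.01% and 4.32%. GAGAG, the site of GAGA factor, was found in 26.7% of members, 19.4% of positions and 24.2% of weak regions, and the repeat CACACACA in 5.90%, 5.22% and 4.97%. For GAGAG the shares of members and positions were 21.9% and 16.2% under 40% GC, and 28.7% and 25.3% at 40% or more. CAGGTAG was found in 13 members (2.13%), 0.764% of positions, 1.40% of weak regions and 2.22% of weak coding-exon regions. The promoter motifs were rare, with TATCGATA, the DNA replication-related element, in 4 members (0.656%), 0.480% of positions and 1.40% of weak regions. GGTCACACT, the site of motif 1 binding protein, was in 0 members, 0.0391% of positions and 0.839% of weak regions. A match is a run of letters and says nothing of what was bound.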

How the data were processed

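The authors deposited narrowPeak lists in dm6 and dm3, and the dm6 lists were used. Per the deposited file listings, every replicate list and the pooled list used a control file, and the IDR list came from these lists. No aligner, peak caller or IDR threshold is stated in the labels. Signal values are the authors' deposited scores of unstated scale, used only within a list. The −log10 q is likewise as deposited by the authors. The summit offset, another deposited value, was 198 bp in all weak regions, each 396 bp wide, so summits are region midpoints. No read counts were used and depth is unknown, so no interval is given. Control reads were not analysed here.

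Coordinates are 1-based. Annotation was Ensembl release 115 (BDGP 6.54), on 6 arms. Overlap needed 1 bp. Members and 15 gene lists were chosen with earlier results of these data known, and 5 listed symbols did not match. Genes were named by rule: the 12 strongest recurrent members, the 8 genes with most members, the 5 best worst ranks, up to 4 members per list, the values at both limits, the extremes of distance and 5 members with 3' UTRs on both strands. Bre1, CG14013, CG4998 and Rack1 were chosen for their motif after values were seen, and all members of some lists are named. Replicate values were compared by an exact two-sided sign-flip permutation test (scipy 1.17.1) over 3 pairs, adjusted over 5 tests, 1 of which compared classes the member rule used and is given as values only. The code was tested on simulated data. Regions are not replicates of each other.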

Additional observations from a re-analysis of the deposited data

How the results depend on the processing

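Of 59 alternative values, 45 kept the sign of a difference, stayed within 1.5 times for a count, or moved by less than the spread between replicates for another share or distance, and no test could pass 0.05 at 3 pairs. In 3' UTR alone members were 1.99% of weak regions, and the upper 50% of weak regions by signal value held 246 members, fewer by construction. Reading summits as midpoints changed nothing, since they are the same point. The share of members overlapped in all lists was 7.38% with replicate summits within 100 bp and 3.44% in the upper 15000 regions of each list, and between 28.4% and 38.2% with each replicate left out, where only 2 lists remain. The difference of members from weak coding-exon regions changed sign, to 0.424 percentage points at an overlap of 50% of the length, 1.16 at 100 bp and 2.18 in the upper 15000, and ranged from -5.69 to 6.32 with a replicate left out, highest without replicate 1. The cause was not tested. The GC difference from other weak regions ranged from -1.75 without replicate 1 to 0.0115 without replicate 3. Hosts with an IDR summit by a start site were 17.9% at 250 bp and 28.3% at 1000 bp, as the window sets, against 12.8% and 18.9% of all genes with eligible 3' UTR. With the summit column read as 1-based, chosen after seeing the data, 608 members remained in number. The alternatives restricted to 3' UTR alone and the replicate left out of the list shares were also added then. No paired analysis was possible because all 3 libraries belong to 1 group, and the tests pair 2 classes of region within each library. Depth is unknown, so absence from a replicate list is not absence of binding.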
